A study of Mus musculus with 4 samples.

Results

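Lars2, Trappc13 and Mir6236 are 3 of the 23922 genes in the authors' deposited Cuffdiff table of E14 mouse embryonic stem cells. They were chosen by their deposited values, which were very high and much lower in condition q2 than in condition q1, so the levels and differences given for them are a description and carry no test here. No numerical limit was set in that choice. Lars2 encodes the mitochondrial leucyl-tRNA synthetase, Trappc13 a subunit of the TRAPP vesicle-tethering machinery, and Mir6236 is annotated as a microRNA gene.

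The study sequenced 4 libraries of E14 cells, a line grown undifferentiated on gelatin with leukemia inhibitory factor. In 2 of them the cells had received esiRNA, a mixture of enzymatically cut short interfering RNAs, against Pnldc1, which encodes a PARN-family 3′ exonuclease. In the other 2 they had received esiRNA against luciferase, a reporter absent from mouse cells. All 4 were transfected by lipofection and made from total RNA depleted of ribosomal RNA and of RNA shorter than 200 nt, and no separate untransfected cells are among the samples. The deposited table joins the libraries into conditions q1 and q2, and no header or label ties either condition to an esiRNA. Differences are therefore stated as q2 against q1 and give no direction of the silencing. The table holds 1 value per gene and condition, so no SD can be given, and no source says whether the 2 libraries with the same esiRNA were grown apart. The authors' p-values thus speak of the spread between these libraries, which may be technical.

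Of all tested genes, 4.25% passed the authors' Cuffdiff test at a q under 0.05 (243 of 5719), with 2.31% higher in q2 and 1.94% higher in q1. In the authors' deposited table the stem cell markers Pou5f1, Nanog, Sox2, Zfp42, Esrrb and Dppa5a had values between 157.6 and 864.9 in q2 and between 149.0 and 713.9 in q1. Gata6, Sox17, Cdx2, T, Pax6 and Col1a1, which mark other cell types, reached at most 4.54 in q2 and 2.27 in q1. The targeted gene Pnldc1 had 26.8 in q2 and 18.1 in q1, and did not pass the authors' test (q = 0.399). The unit of the values is not stated. If they are FPKM, Cuffdiff's default, they are read abundances per kilobase of transcript and can be set against each other between genes, which is assumed below wherever levels of different genes are compared. Sequencing depth is not stated either, so no counting interval is given.

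Aminoacyl-tRNA synthetases join each amino acid to its transfer RNA, and mammals use largely separate sets of these enzymes in the cytosol and in mitochondria. Lars2 belongs to the mitochondrial set and is encoded in the nucleus. TRAPP complexes act on small GTPases of the Rab family and help transport vesicles to dock in the secretory pathway and in autophagy. A shared core is completed by different outer subunits, and Trappc13 is counted with Trappc8, Trappc11 and Trappc12 in the form called TRAPPIII. MicroRNAs are cut from hairpin precursors by Drosha and Dicer and pair with target RNAs mainly through a seed near their 5′ end.

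The mature sequence of Mir6236 is shown because it is short, while RNA under 200 nt was depleted before sequencing. The mature RNA is 19 nt long and lies at chr9:110281353-110281371 on the plus strand (RefSeq, GRCm38.p6). Capitals mark its seed, bases 2 to 8.
mmu-miR-6236: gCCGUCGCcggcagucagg
None of the other mature sequences in the RefSeq table, 1738 in all, shares this seed. The mature sequence had a GC content of 78.9%, against a median of 52.2% over that table, and 1.15% of the table's sequences had as much or more.

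The promoter windows of the other 2 genes are shown because both genes had values near 10-fold lower in q2, and because that of Trappc13 overlaps the window of another gene. Each window runs from 250 bases before to 50 bases after the RefSeq start (GRCm38.p6). In the window of Trappc13, at chr13:104178417-104178716 on the minus strand, capitals mark the 128 bases that are also in the window of Trim23, which starts 373 bases away and is read in the opposite direction.
Trappc13 promoter window: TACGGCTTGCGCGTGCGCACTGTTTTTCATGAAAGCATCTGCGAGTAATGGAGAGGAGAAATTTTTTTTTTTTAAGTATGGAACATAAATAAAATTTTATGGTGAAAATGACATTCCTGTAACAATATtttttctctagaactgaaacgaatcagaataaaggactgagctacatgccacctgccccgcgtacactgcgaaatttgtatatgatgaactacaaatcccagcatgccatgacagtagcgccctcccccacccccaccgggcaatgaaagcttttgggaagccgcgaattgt
In the window of Lars2, at chr9:123366677-123366976 on the plus strand, capitals mark the 50 bases from the start.
Lars2 promoter window: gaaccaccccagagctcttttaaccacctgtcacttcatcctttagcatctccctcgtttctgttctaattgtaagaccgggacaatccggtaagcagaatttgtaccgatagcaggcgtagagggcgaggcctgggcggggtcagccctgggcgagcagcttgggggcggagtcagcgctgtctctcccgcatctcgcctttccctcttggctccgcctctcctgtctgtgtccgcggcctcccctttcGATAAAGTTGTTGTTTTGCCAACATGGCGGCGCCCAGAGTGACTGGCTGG
The windows differed in composition. GC content was 58.3% for Lars2 and 42.7% for Trappc13, against a median of 52.7% over all 32851 windows of this length, and they held 18 and 13 CpG dinucleotides against a median of 7. Motifs were searched on both strands, and none of the 3 contains another. The TATA box letters TATAAA are in neither window and in 13.6% of all windows, and CCAAT is in neither and in 37.4%. The GC box letters GGCGGG are in the Lars2 window, not in that of Trappc13, and in 35.3% of all windows. Such matches describe the letters only.

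Lars2 is annotated at chr9:123366927-123462666, plus strand (GRCm38). In the authors' deposited table it had a value of 2633 in q2, against 24673 in q1, a log2 ratio of q2 over q1 of -3.23, or 9.37-fold lower in q2. It was the 11th highest of all genes in q1 and the 57th highest in q2, so it stayed among the highest values of the table in both conditions. The authors' test gave p = 5e-05, the smallest p in the table, which 78 genes share, and q = 0.00367. In bulk RNA, fewer cells with a transcript and less of it per cell cannot be told apart.

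Trappc13 is annotated at chr13:104142149-104178469, minus strand. Its deposited value in the authors' table was 48.0 in q2, against 474.2 in q1, which is a log2 ratio of -3.30, or 9.88-fold lower in q2 (q = 0.00367). It ranked 127th of all genes in q1 and 2141st in q2. Unlike Lars2, it was thus not among the highest values of the table in q2.

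Mir6236 was listed at 17905 in q2, against 81549 in q1, in the authors' deposited table, which is a log2 ratio of -2.19, or 4.55-fold lower in q2 (q = 0.00367). It ranked 3rd of all genes in q1 and 20th in q2. The annotated gene is 123 bases long, of which the mature RNA is 19 nt. For an RNA this short, a value per kilobase is large for a given number of reads. Its level therefore cannot be compared directly with those of the 2 longer genes. Since RNA under 200 nt was depleted, the value cannot be taken as a level of the mature microRNA either. Which RNA the reads came from was not tested.

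Lars2 and Trappc13 had nearly the same difference. Their log2 ratios lay 0.08 apart, and the Lars2 value was 54.8 times that of Trappc13 in q2 and 52.0 times in q1. The log2 ratio of Mir6236 lay 1.04 from that of Lars2 and 1.12 from that of Trappc13. With 1 value per condition the spread of these ratios is unknown, and the likeness was picked out after the values were seen.

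Among the 111 genes that passed the authors' test as higher in q1, Trappc13, Lars2 and Mir6236 had the 3 largest differences, in that order. The next was Pabpc1, a gene for a cytoplasmic protein that binds poly(A) tails, at a log2 ratio of -1.54. Large differences of short RNAs that did not pass or were not tested occurred in both directions. For example, 29 microRNA genes were above 0 in q2 alone and 30 in q1 alone. Only differences toward q1 were counted here. The count took a q1 value of at least 100, with a q2 value at 0 or a log2 ratio of -2 or less. In all, 39 of the 23922 genes met this. Of these 34 were listed at 0 in q2, 29 of them microRNA genes and 5 small nucleolar or Cajal body RNAs (Scarna8, Snora3, Snora69, Snord53 and Snord7). Only 5 were above 0 in both conditions, and the 2 that were not Lars2, Trappc13 or Mir6236 were Snord68, a small nucleolar RNA (1904 in q2 and 8919 in q1 in the authors' deposited table, q = 0.681), and Mir686 (0.383 and 266 in the same order, q = 0.716). Of the 39 genes, 3 passed the authors' test, beside 1.94% of all tested genes that passed as higher in q1. These were Lars2, Trappc13 and Mir6236, which were themselves chosen on these values. Several of the others, among them Scarna8, Snora3, Snora69 and Snord7, were not tested and so could not pass.

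**Figure D1:**
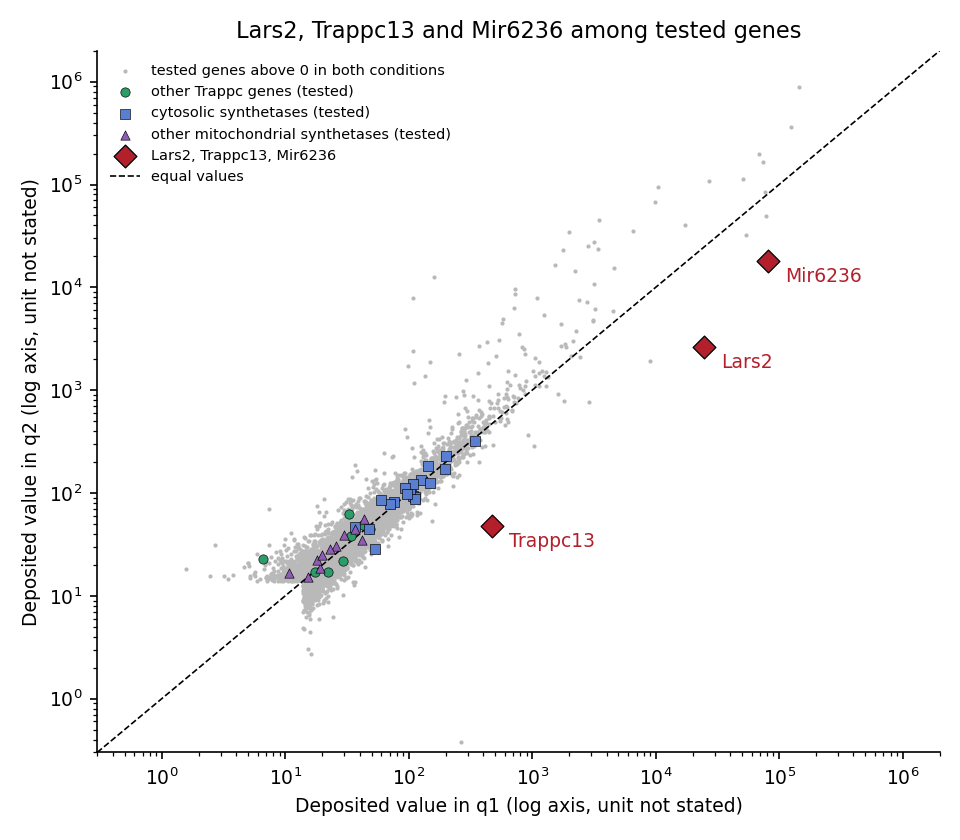
Deposited values of tested genes in q2 (vertical axis) and q1 (horizontal axis), both on log axes in a unit that is not stated, with 1 point per gene above 0 in both conditions. Lars2 (2633 in q2 and 24673 in q1), Trappc13 (48.0 and 474.2) and Mir6236 (17905 and 81549) lie below the line of equal values, farther below it than any of the other Trappc genes or synthetases.

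If the values are per kilobase of full transcript length, the value times that length is proportional to the reads a gene took. Summed over 21345 genes with an annotated transcript of at least 200 nt, Lars2 (3894 nt) then took 0.922% of the total in q2, against 8.42% in q1. In q1 this was the largest share of any gene, and the next was Hsp90ab1, a heat shock protein, with 0.539%. In q2 Lars2 came second after Rmrp, the RNA part of RNase MRP, at 2.37%. Trappc13 (3538 nt) took 0.0153% in q2 and 0.147% in q1, the 1539th and the 28th largest share. These shares use 1 representative transcript per gene and the authors' scaling.

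Other subunits of TRAPP did not show a difference of the size seen for Trappc13. The tested ones had a median value of 30.4 in q2 and 31.1 in q1 in the authors' deposited table, against 34.1 in q2 and 33.0 in q1 over all tested genes. They ranged between 17.0 and 62.7 in q2 and between 6.63 and 48.4 in q1. Apart from Trappc13, 14 Trappc genes are in the table and 8 were tested. None of the 8 passed the authors' Cuffdiff test at a q under 0.05, beside 4.25% of all tested genes, a share at which a count of 0 among so few genes is near the background. None had an unadjusted p under 0.05, and no other tool could be run on this table. Their median log2 ratio was 0.07, against 0.06 over all tested genes, with 4 of 8 above 0 and 4 below. The 6 untested genes had values of at most 13.6.

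Among the other TRAPPIII subunits, Trappc11 had 21.6 in q2 and 29.5 in q1 in the authors' deposited table, at a log2 ratio of -0.45 (q = 0.275). Trappc8 had 17.0 in q2 and 22.3 in q1 (log2 ratio -0.39, q = 0.387), and Trappc12, not tested, had 11.9 in q2 and 13.1 in q1. Neither tested subunit passed, and both ratios were closer to 0 than that of Trappc13.

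Of the core subunits, Trappc1 had 45.1 in q2 and 48.4 in q1 in the authors' deposited table, at a log2 ratio of -0.10, Trappc4 49.3 and 42.4 (0.22) and Trappc3 38.2 and 34.0 (0.17). Trappc2l had 62.7 in q2 and 32.7 in q1 (log2 ratio 0.94, q = 0.274). Trappc6a had the largest ratio toward q2, with 22.6 in q2 and 6.63 in q1 (log2 ratio 1.77, q = 0.285), and its close relative Trappc6b had 17.0 and 17.4 (-0.04). Trappc9 and Trappc10, subunits of the TRAPPII form, were not tested and had 8.59 and 8.24 in q2 and 6.88 and 11.3 in q1.

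Set against these, Trappc13 was 9.80 times the next highest Trappc gene, Trappc1, in q1. In q2 it lay within their range, below Trappc2l and Trappc4. Its q2 value was 1.58 times the median of the tested subunits and its q1 value 15.3 times.

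**Figure D2:**
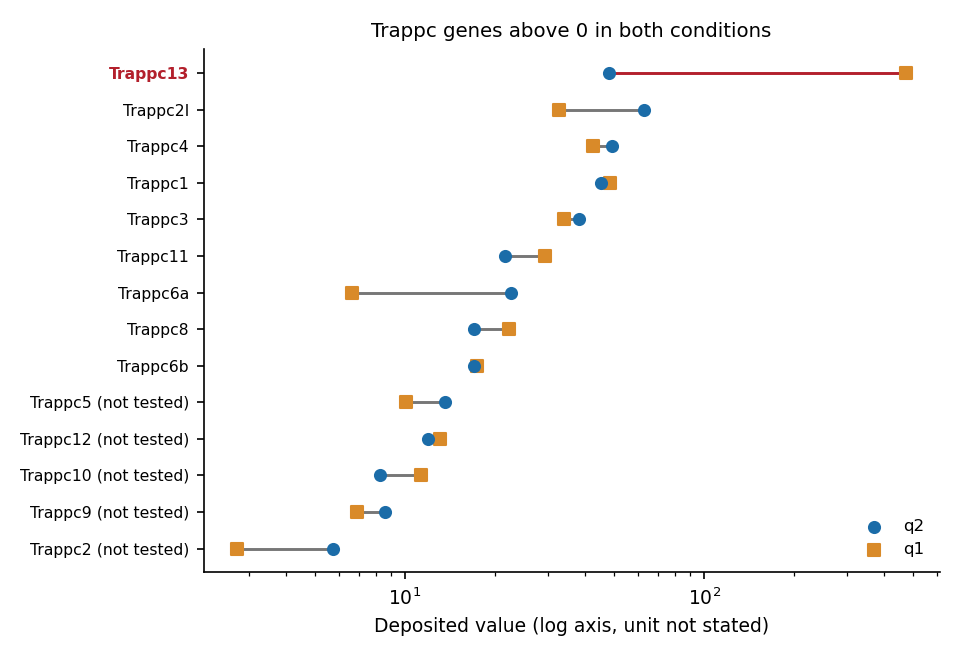
Deposited values of the Trappc genes above 0 in both conditions, in q2 (circles) and q1 (squares) on a log axis in a unit that is not stated. The q2 value of Trappc13 (48.0) lies among those of the other subunits and its q1 value (474.2) above all of them.

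Genes for partners of TRAPP and for other tethering complexes did not show a difference of the size of Trappc13's. The 44 genes are for Rab1, Rab11, the COPII coat of vesicles leaving the endoplasmic reticulum and other tethers. Of these 28 were tested and 1 passed the authors' test, beside 4.25% of all tested genes. Their median log2 ratio was -0.03. The gene that passed was Sec16a, a scaffold of COPII assembly sites, with 15.3 in q2 and 23.9 in q1 in the authors' deposited table, at a log2 ratio of -0.64 (q = 0.0464). Rab1 (Rab1a), a GTPase that TRAPPIII activates, had 60.4 in q2 and 87.6 in q1 (log2 ratio -0.54, q = 0.101), and Rab1b had 106.3 and 82.1 (0.37, q = 0.308). Tfg, which organises COPII sites, had 66.8 and 41.9 (0.67, q = 0.0909). Sec13, a COPII coat protein, had the highest values, 222.5 in q2 and 193.8 in q1 (log2 ratio 0.20). Of the tethers, Cog4, a subunit of the Golgi tether COG, had the highest value in either condition, 61.7 in q2 and 50.7 in q1, followed by Cog8, with 44.6 and 41.7. None of the 15 tested passed (1 had an unadjusted p under 0.05).

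No other mitochondrial synthetase came near the level of Lars2. The table holds 16 such genes, of which 11 were tested. Of those, 0 passed Cuffdiff's q under 0.05, which is near the background of 4.25% of all tested genes, and 1 had an unadjusted p under 0.05. As scaled by the authors, 8 of these 11 ratios lay above 0, and the median log2 ratio was 0.30, against 0.06 over all tested genes. The gene with the unadjusted p under 0.05 was Vars2, for valine, with 16.6 in q2 and 10.8 in q1 in the authors' deposited table, at a log2 ratio of 0.63 (q = 0.205). Tars2, for threonine, had the highest values after Lars2, 56.1 in q2 and 43.4 in q1 (log2 ratio 0.37, q = 0.370). Yars2, for tyrosine, had 45.1 and 36.8 (0.29), Iars2, for isoleucine, 34.8 and 42.0 (-0.27) and Cars2, for cysteine, 39.2 and 29.8 (0.39). The 5 untested genes (Hars2, Mars2, Nars2, Pars2 and Wars2) had values of at most 13.2.

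The value of Lars2 was thus 46.9 times that of Tars2 in q2 and 569 times in q1. Against the median of the tested mitochondrial synthetases the multiples were 91.5 in q2 and 1075 in q1. In contrast to Trappc13, Lars2 was above the range of its relatives in q2 as well.

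Tested cytosolic synthetases had a higher median value than the tested mitochondrial ones other than Lars2 (28.8 in q2 and 23.0 in q1). The ranges overlapped, and all cytosolic ones were well below Lars2. Of 21 cytosolic genes 20 were tested, with a median value of 98.6 in q2 and 106.3 in q1. Kars, the lysyl enzyme, which serves both compartments, had the highest values, 323.3 in q2 and 342.6 in q1 in the authors' deposited table, at a log2 ratio of -0.08, and Lars2 was 8.14 times as high in q2 and 72.0 times in q1. Aars, for alanine, had 230.7 in q2 and 200.9 in q1 (log2 ratio 0.20), Gars, for glycine, 171.6 and 197.4 (-0.20) and Farsa, a subunit of the phenylalanyl enzyme, 183.9 and 143.8 (0.35, q = 0.266).

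One cytosolic synthetase passed the authors' test, beside 1.94% of all tested genes that passed as higher in q1. It was Vars, the valyl enzyme, with 28.2 in q2 and 53.2 in q1 in the authors' deposited table, at a log2 ratio of -0.91 (q = 0.00367). Lars, which charges leucine tRNA in the cytosol as Lars2 does in mitochondria, had 86.5 in q2 and 112.8 in q1 (log2 ratio -0.38, q = 0.194) and did not pass. Wars, the tryptophanyl enzyme, had 85.2 in q2 and 59.6 in q1 (log2 ratio 0.52, q = 0.154). The median log2 ratio of the 20 tested genes was 0.03, with 11 above 0 and 9 below.

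**Figure D3:**
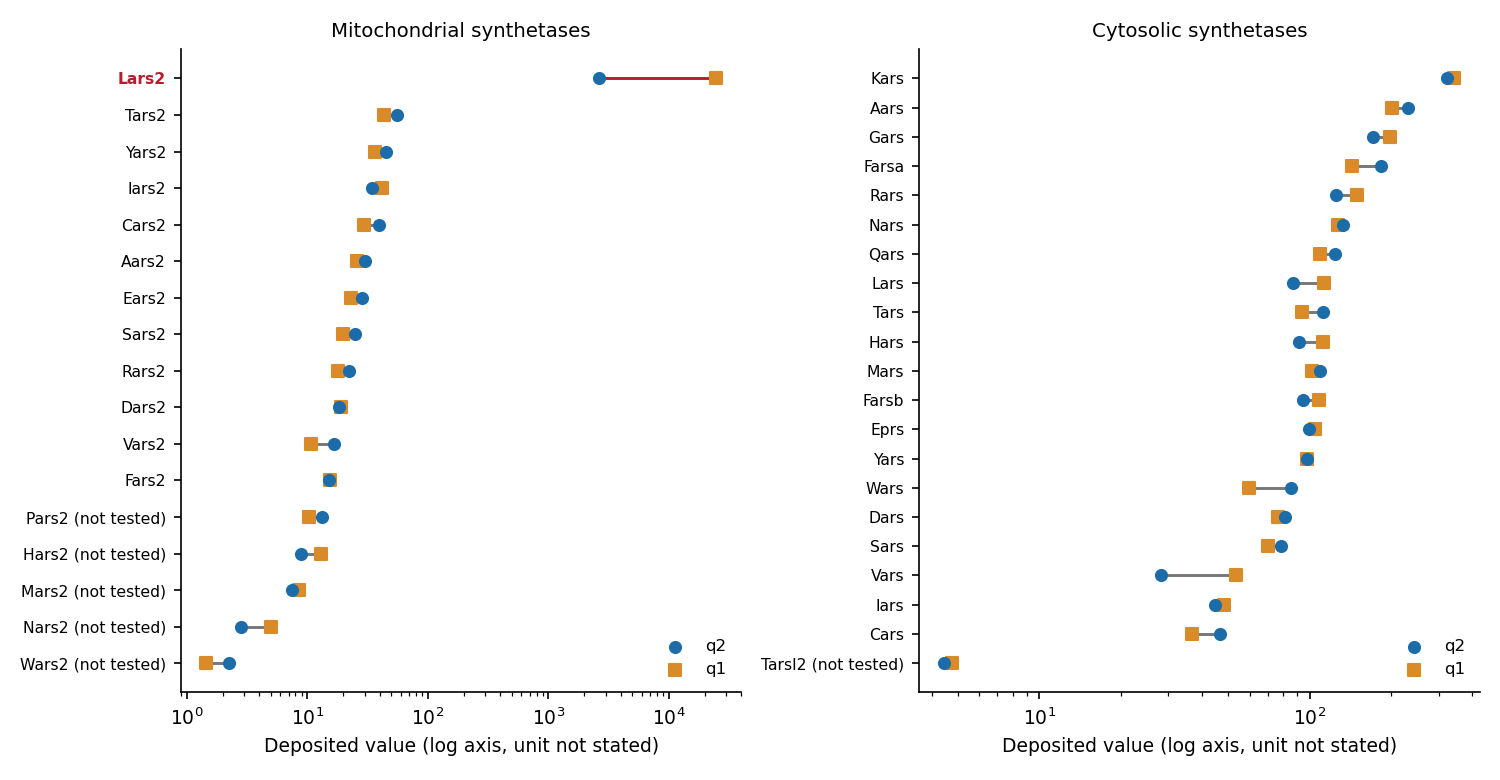
Deposited values of the mitochondrial synthetases (left) and the cytosolic synthetases (right) in q2 (circles) and q1 (squares), on log axes in a unit that is not stated. Lars2 (2633 in q2 and 24673 in q1) stands apart from Tars2 (56.1 and 43.4), the next mitochondrial gene, in both conditions.

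Tested genes that act beside Lars2 in mitochondrial translation, or with synthetases elsewhere, had log2 ratios between -0.68 and 0.73. Of 23 such genes 14 were tested. None passed the Cuffdiff test, near the background of 4.25% of all tested genes, and none had an unadjusted p under 0.05. Their median log2 ratio was 0.32, with 10 of 14 above 0. The untested genes had values of at most 13.1. Of those, Dtd2 (log2 ratio 1.62) and Mtif3 (0.80) lay above the range of the tested ones and the others within it. In the authors' deposited table Tsfm, a mitochondrial elongation factor, had 71.9 in q2 and 64.2 in q1 (log2 ratio 0.16), Gfm1, another, had 52.3 and 54.7 (-0.07), and Tufm had a log2 ratio of -0.68 (q = 0.345). Qrsl1, a subunit of the enzyme that makes mitochondrial glutaminyl-tRNA, had 16.8 in q2 and 13.9 in q1 (0.27). Eef1e1 and Aimp1, scaffold proteins of the cytosolic multi-synthetase complex, had 143.2 and 122.7 in q2 and 167.2 and 95.3 in q1.

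**Figure D4:**
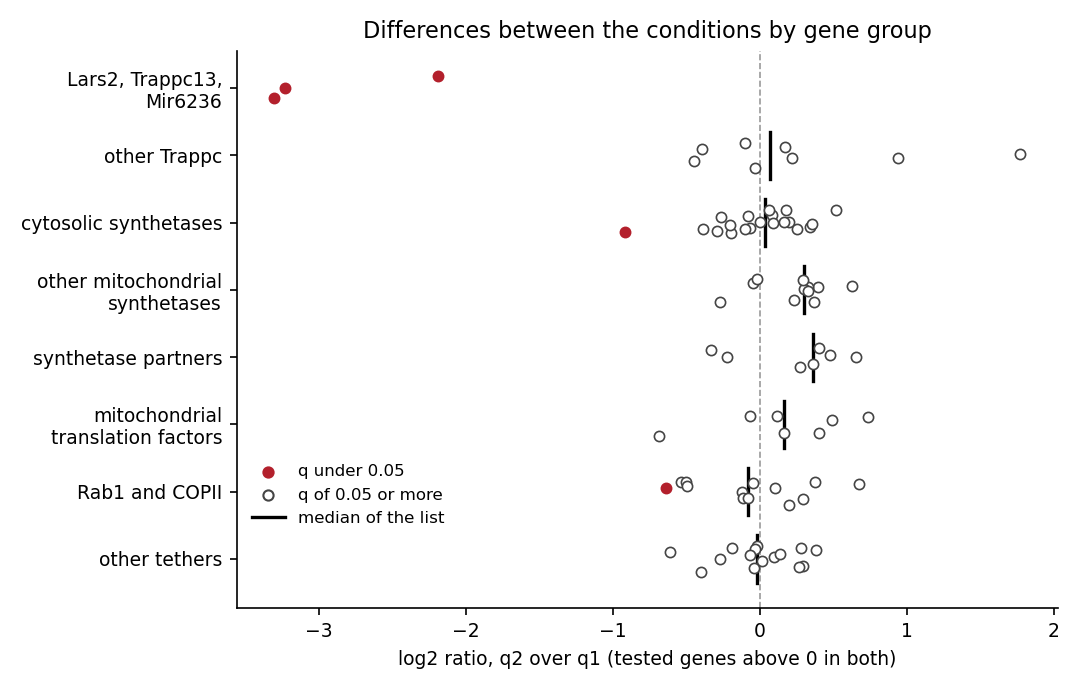
Log2 ratio of q2 over q1 (horizontal axis) of tested genes above 0 in both conditions, by gene list, with filled points for a q under 0.05 in the authors' test and a bar at the median of each list other than the first row. Lars2 (-3.23), Trappc13 (-3.30) and Mir6236 (-2.19) lie far to the left of all other points, and 2 of the other genes, Vars and Sec16a, passed.

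Mir6236 had the highest value of all microRNA genes in both conditions. Of 1094 other microRNA genes in the table, 1017 were listed at 0 in both conditions, 29 were above 0 in q2 alone, 30 in q1 alone and 18 in both. Of those 18, 9 had the higher value in q2 and 9 in q1. None of the 61 tested passed the Cuffdiff test, beside 4.25% of all tested genes, none had an unadjusted p under 0.05 and the lowest p was 0.0689, for Mir703 (760.8 in q2 and 2907 in q1 in the authors' deposited table). The highest q2 value among them was 6303, for Mir1949, and the highest q1 value was 3584, for Mir145, which was listed at 0 in q2. Mir6236 was 2.84 times the highest of the others in q2 and 22.8 times in q1, and it made up 36.0% of the summed microRNA values in q2 and 72.0% in q1.

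**Figure D5:**
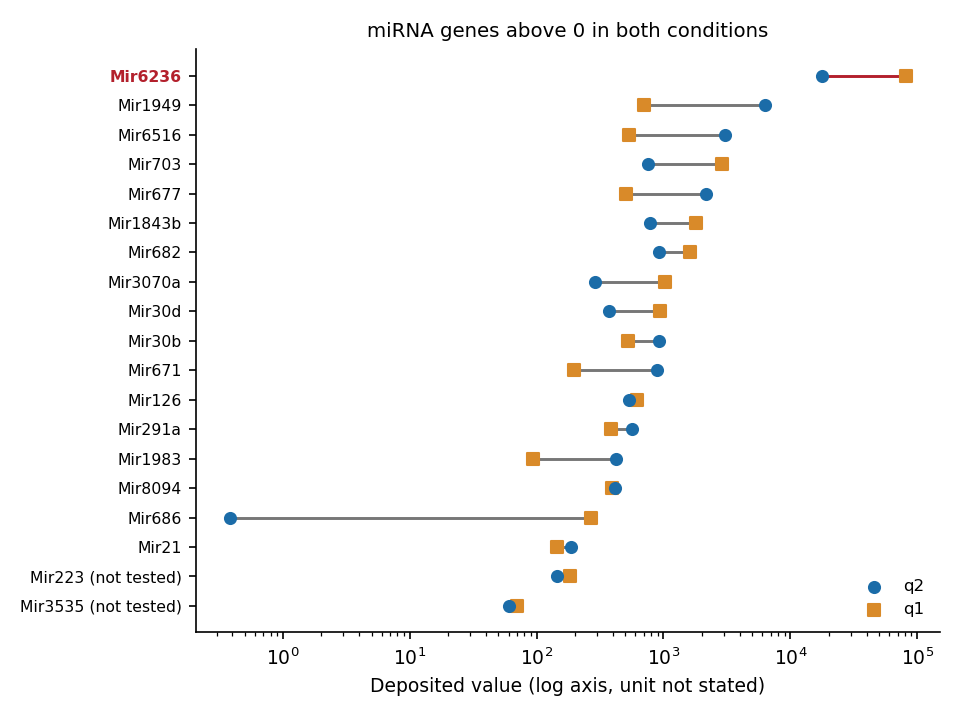
Deposited values of the microRNA genes above 0 in both conditions, in q2 (circles) and q1 (squares), on a log axis in a unit that is not stated. Mir6236 has the highest value in both conditions (17905 in q2 and 81549 in q1), followed in q2 by Mir1949 (6303).

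Each of the genes named beside the 3 loci had a log2 ratio closer to 0 than that of the gene it neighbours. All those named beside Lars2 and Trappc13 also had the lower value in q2, while those beside Mir6236 went both ways. Trim23 is a ubiquitin ligase gene whose GENCODE start lies 328 bases from Trappc13. By the RefSeq starts, used for the overlapping promoter windows above, the distance is 373 bases. Trim23 had 7.24 in q2 and 10.8 in q1 in the authors' deposited table and was not tested. Sgtb, a co-chaperone gene whose end lies 414 bases beyond the 3′ end of Trappc13, had 2.07 in q2 and 3.84 in q1 and was not tested either. Nln and Ppwd1, further out, had log2 ratios of -0.09 (q = 0.860) and -0.07 (q = 0.916). None of these approached the 9.88-fold difference of Trappc13.

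On chromosome 9, Limd1 starts 16040 bases after Lars2 and had 7.52 in q2 and 9.30 in q1 in the authors' deposited table. Sacm1l, a phosphoinositide phosphatase gene, had 6.98 and 12.1. On the other side Tmem158 had 0.401 and 1.95, a log2 ratio of -2.28 at low values, and Cdcp1 had 0.352 and 0.409. None of the 4 was tested. Mir6236 lies on the same chromosome but between other genes, Cspg5 (3.59 in q2 and 3.77 in q1, not tested) and Elp6 (15.8 and 14.9, q = 0.919), a subunit of the Elongator complex. Smarcc1 and Scap, the next genes outward, had log2 ratios of -0.16 and 0.04.

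The genes whose pair of values was most like each of the 3 were found by distance in the plane of log2 values over the 2 conditions. For Trappc13 these were Pabpc1 (53.3 in q2 and 155.3 in q1 in the authors' deposited table, distance 1.62), L1td1, an RNA-binding protein of pluripotent cells (116.3 and 230.1, distance 1.65), and Fxyd6, an ion pump regulator (78.4 and 162.5, distance 1.70), each with q = 0.00367. For Lars2 they were Snord68 (distance 1.54), the histone gene Hist2h2bb (5882 in q2 and 4545 in q1, q = 0.143, distance 2.70) and Snord87 (4758 and 3112, q = 0.758, distance 3.11). For Mir6236 they were Snord82 (32468 in q2 and 53530 in q1, q = 0.797, distance 1.05), AF357355 (49482 and 77973, q = 0.423, distance 1.47) and Snord34 (84142 and 76590, q = 0.938, distance 2.23). A distance of 1 is a 2-fold difference in 1 of the conditions, and the nearest gene lay more than 1 away from each of the 3. Of these 9 only the 3 nearest to Trappc13 passed, beside 4.25% of all tested genes. The 9 were picked on the same values that were tested, so this count is a description only.

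Lars2 and Trappc13 share no long stretch of sequence. Across 9 annotated transcripts of Lars2 and 6 of Trappc13, no word of 25 bases on either strand occurs in both genes, and the longest identical run is 16 bases. Mir6236 shares no such word with either gene, and its longest identical runs are 13 bases with Lars2 and 14 with Trappc13. None of the 3 genes shares such a word with the 356 transcripts that the annotation classes as ribosomal RNA. The longest of those is 1849 nt, so a full large-subunit ribosomal RNA is not among the sequences compared. None of the nuclear and mitochondrial ribosomal RNA genes looked up has a row in the table. Rmrp and Rpph1, the RNAs of RNase MRP and RNase P, which are not ribosomal RNAs and were looked up with them, passed in the opposite direction to the 3 genes. In the authors' deposited table Rmrp had 93681 in q2 and 10509 in q1, and Rpph1 had 23147 in q2 and 1784 in q1 (q = 0.00367 for each).

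Of the 25-base words of the representative Lars2 transcript, 1.14% occur in the representative transcript of another gene. The share was 6.69% for Trappc13, 0 of 99 words for Mir6236, and a median of 1.41% over 21900 protein-coding genes. The Trappc13 share was exceeded by 34.8% of protein-coding genes and that of Lars2 by 52.1%. The sources used here do not say how reads that match several places were assigned, and a part of such reads in the values of the 3 genes was not tested.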

How the data were processed

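Library titles gave the groups of the 4 libraries. The submitters' processing notes name TopHat and Cuffdiff, and mm10 and GRCm38.p4 as builds. Their versions, options and annotation are not stated in the labels or headers. For each gene the deposited table gives, per the file headers, a value in q1 and in q2, a test status, a signed test score, a p-value and a q-value. The unit of the values is not stated. The log2 ratio was computed again from the values, since the deposited column holds spreadsheet errors. The authors' test at a q under 0.05 is the only test. Benjamini-Hochberg adjustment of their p-values gave their q-values within 5.24e-07.

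The 3 genes and all gene lists were chosen with earlier results of these data known. The naming rule was the list members that passed and the highest ones, the 3 nearest genes, large differences toward q1 and the 2 nearest genes with a row on each side. Lars, Wars, Vars2, Rab1, Tfg, Tufm, Qrsl1, Hsp90ab1, Mir145, Mir703, Mir1949 and the Trappc subunits below the top 4 were named after their values were seen. So were Dtd2, Mtif3 and Snord35a. The table has no positions, so those came from GENCODE M21 (GRCm38), matched by symbol, as did transcript lengths, with 1 coding or otherwise longest transcript per gene. List names without a row were looked up among RefSeq synonyms. MicroRNA host genes (3) were left out of the microRNA genes. A further sequence is not reported here. Helper functions were tested on simulated data, with Python 3.11.15, pandas 2.3.3 and NumPy 2.4.6.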

Additional observations from a re-analysis of the deposited data

How the results depend on the processing

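The log2 ratios of Lars2, Trappc13 and Mir6236 changed by at most 0.06 when centred on the median of tested genes or on the upper quartiles, or with 1 added to the values. Scaled to the sum of all other genes, which short RNAs dominate and which shifts every gene by 1.35 toward q1, they were -4.58, -4.65 and -3.54. Under that scaling the medians of the lists given as above 0 fall below it. At a q under 0.01, 65 genes passed as higher in q2 and 42 as higher in q1. The count of Rab1, Rab11, COPII and tether genes higher in q1 was then 0, since Sec16a no longer passed. Counts for the Trappc genes, the synthetases and the mitochondrial translation genes were the same at that threshold. All 5719 tested genes reached a value of 10, so adjusting over genes that do so changed nothing. RNAs under 200 nt were included in an alternative chosen after the data were seen. The length-weighted share of Lars2 was then 0.772% in q2 and 7.93% in q1, and that of Trappc13 0.0128% and 0.138%. Mir6236 took 0.166% in q2 and 0.828% in q1. Whether the values were divided by the full annotated length was not tested, so shares of RNAs this short may not follow reads. Lars2 still ranked 1st in q1 but 6th in q2, where Snord35a, a small nucleolar RNA, had the largest share at 5.98%. No paired analysis was possible because no value of a single library is in the table, and no library could be left out for the same reason.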
